A study of Mus musculus with 84 samples.

Results

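Astrocytes of FVB/N control mice that were rich in transcripts of Bergmann glia were compared with astrocytes of the same strain that were low in them. The comparison used 6 libraries out of 84 in the series, 3 in each group. The members were chosen by the sample labels. The first group is labelled spinal cord ACSA+GLAST-, and the study's own table of normalised values names the same 3 columns hindbrain ACSA+GLAST+. The second group is labelled forebrain ACSA+GLAST+, and that table names these 3 columns hindbrain ACSA+GLAST-. Because the namings conflict, the groups are called here by the level of Gdf10, the marker given for Bergmann glia: the Gdf10-high libraries (labelled SC, ACSA+GLAST-) and the Gdf10-low libraries (labelled FB, ACSA+GLAST+). Both groups come from unimmunised animals of the FVB/N strain whose age is not stated, with up to 2 mice pooled in a library, and DAPI-negative cells were sorted for ACSA-2, the astrocyte surface antigen encoded by Atp1b2, after CD11B+ and CD45+ cells had been set aside. GLAST is the glutamate transporter encoded by Slc1a3 and was the second sort antigen. As hindbrain the study took cerebellum and brain stem together, so a hindbrain isolate can hold Bergmann glia, other cerebellar astrocytes and brain stem astrocytes.

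Bergmann glia are unipolar astrocytes of the cerebellum. Their cell bodies lie around those of Purkinje cells and their processes run through the molecular layer to the pial surface, where they enwrap the synapses of parallel and climbing fibres. They are known for high GLAST, for AMPA receptors that lack the GluA2 subunit and so let calcium pass, and for Gdf10, a secreted member of the TGF-β family. Velate astrocytes of the granule layer and the astrocytes of the brain stem share most general astrocyte genes with them and lack these features.

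The Gdf10-high libraries held between 901490 and 1031260 counts and the Gdf10-low libraries between 898887 and 946986. Values are given as CPM, counts scaled to a common library size after TMM normalisation, where 3 counts correspond to between 2.9 and 3.61 CPM. Reads are not independent molecules, so this floor covers counting error only. Gdf10-high library 3 stood apart from its group, with 8394 genes over 3 counts against 10021 and 10735 in libraries 1 and 2, and with correlations of log2(CPM + 1) across genes of 0.632 and 0.711 with these, which correlated with each other at 0.841. The 3 pairs of Gdf10-low libraries correlated at between 0.872 and 0.877. Mitochondrially encoded genes took 24.3%, 12.2% and 14% of the counts in Gdf10-high libraries 1, 2 and 3 and 14.9%, 21.3% and 15% in the Gdf10-low libraries. The total counts of called genes are therefore also given without Gdf10-high library 3.

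Regional genes were read first, because the namings place the libraries in different regions. Hox genes pattern the spinal cord and caudal hindbrain, and their summed expression was 1.2, 20.3 and 1.03 CPM in the Gdf10-high libraries 1, 2 and 3, which the labels place in spinal cord. It was 169, 78.4 and 63 CPM in the Gdf10-low libraries, labelled forebrain, and between 1042 and 1082 CPM in the 3 libraries labelled hindbrain ACSA+GLAST-. Transcription factors of forebrain patterning summed to between 103.6 and 142.1 CPM in the Gdf10-high and between 99.6 and 197.2 CPM in the Gdf10-low libraries, with overlapping ranges, against between 860.2 and 1260 CPM in the 6 libraries labelled forebrain ACSA+GLAST- or hindbrain ACSA+GLAST+. Factors of hindbrain and cerebellar patterning, among them the Zic genes, summed to between 2563 and 2963 CPM in the Gdf10-high and between 1041 and 1385 CPM in the Gdf10-low libraries. The range in the other 9 was 531.2 to 699.5 CPM. Hopx, which also stands in the Bergmann glia list, makes up much of the first sum. Without Hopx the sums were 1137, 1514 and 1561 CPM in the Gdf10-high and 932.4, 1163 and 962.6 CPM in the Gdf10-low libraries, so that the 2 groups overlapped, and between 430.5 and 624.9 CPM in the other 9. Both groups thus lay above the other 9 libraries with and without Hopx. These values go against the labels spinal cord and forebrain for both groups, and fit the hindbrain names of the study's table. Slc1a3, used in the sort, was at 10058, 11008 and 9422 CPM in the Gdf10-high libraries, labelled GLAST-, and at 1989, 1736 and 2091 CPM in the Gdf10-low libraries, labelled GLAST+. Atp1b2, which encodes the antigen both groups were sorted for, was at 3422, 5759 and 6441 CPM against 7314, 6770 and 8157 CPM and was not called (adjusted p = 0.112).

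**Figure D1:**
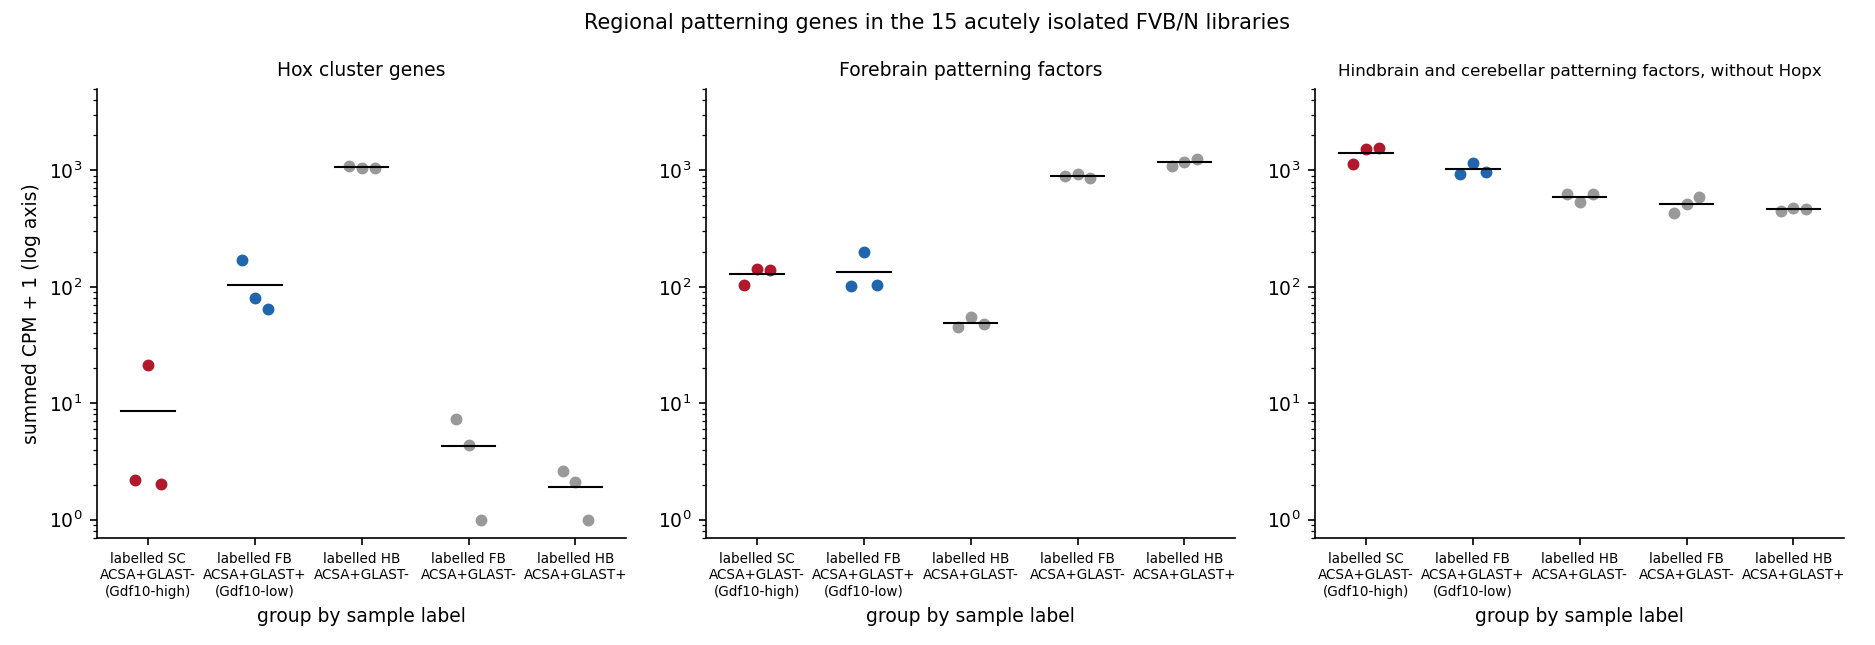
Summed CPM + 1 on a log axis for Hox genes, forebrain patterning factors and hindbrain and cerebellar patterning factors other than Hopx in the 15 acutely isolated FVB/N libraries, with 1 point per library, a bar at the group mean and groups named by the sample labels. Hox genes reached 1082 CPM in the libraries labelled hindbrain ACSA+GLAST- and at most 20.3 CPM in the Gdf10-high libraries, while hindbrain and cerebellar factors reached at most 624.9 CPM outside the Gdf10-high and Gdf10-low libraries, which overlapped between 1137 and 1163 CPM.

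Genes of Bergmann glia, chosen with earlier results of these data known, were among those that differed. Gdf10, Wif1, Tnc, Cacng5, Hopx, Gria1, Gria4 and Mybpc1 were all expressed at a level in the Gdf10-high libraries that no Gdf10-low library reached, while Kcnk1, a potassium channel, Slc6a11, a GABA transporter, Mag, a myelin protein, and Msmo1, an enzyme of cholesterol synthesis, were lower there. In all, 185 genes were called higher, which is 1.24% of the 14957 tested, and 377 were called lower, which is 2.52%. Together they were 3.76%. These shares are the background for the counts of called members in all gene lists below. Calls required a log2 fold change above 1 or below -1 and a p under 0.05 from edgeR's quasi-likelihood test, two-sided and with Benjamini-Hochberg adjustment over all genes tested. The test underlies every adjusted p given for FVB/N, and the fit held all 15 acutely isolated libraries. Such a p measures the spread between libraries of pooled mice, which may be partly technical. Whether libraries of the 2 groups share mice is not stated, and the test treats them as independent. The median log2 fold change over all genes was -0.14. Without Gdf10-high library 3 there were 285 higher and 473 lower calls, of which 164 and 316 had been called with it, and a fit of the 6 libraries alone called 111 and 115.

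**Figure D2:**
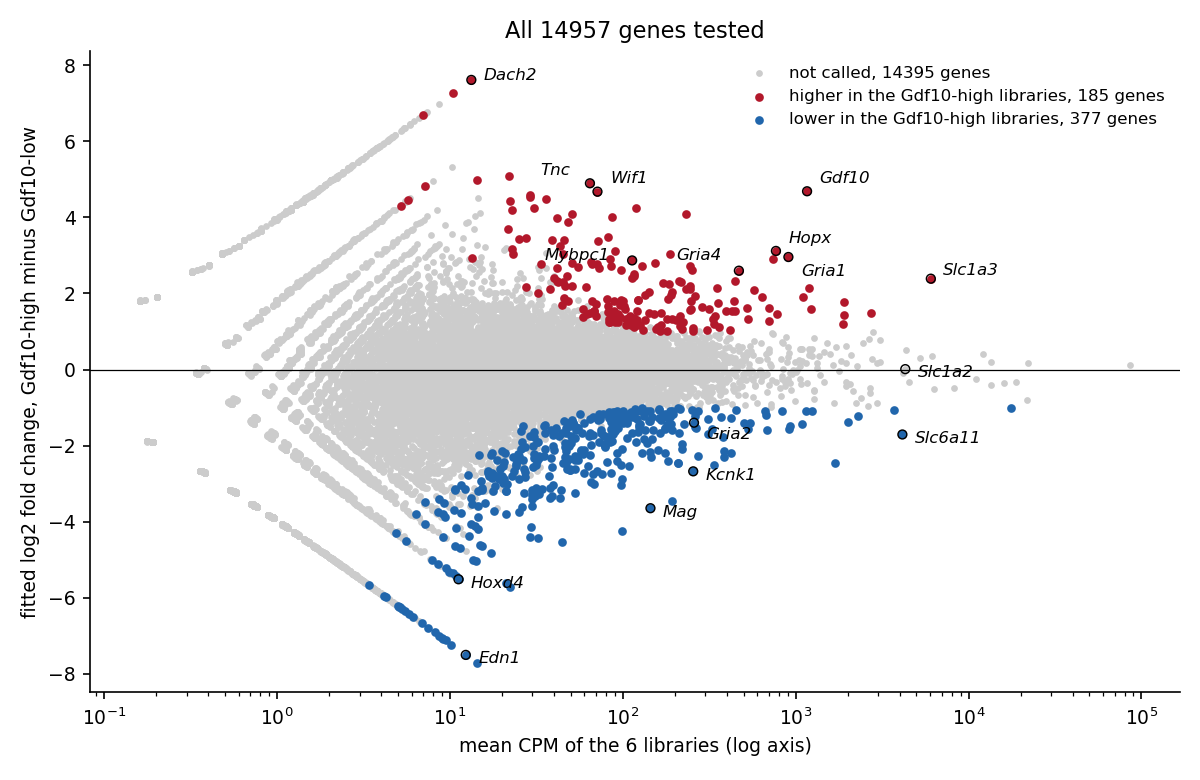
Fitted log2 fold change (Gdf10-high minus Gdf10-low, vertical) against the mean CPM of the 6 libraries (horizontal, log axis) for all 14957 genes tested, 1 point per gene, coloured by call. The 185 genes called higher include Gdf10 at 4.69 and Slc1a3 at 2.39, the 377 called lower include Slc6a11 at -1.71 and Mag at -3.65, and the diagonal lines at the left are genes with no or few counts in a group, whose fitted values depend on a small prior count.

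The 3 marker genes of Bergmann glia separated the groups completely. The study had reported these genes from the same FVB/N libraries, so their separation and p-values are descriptions and not independent support. It gave Gdf10 as the gene most significantly enriched in hindbrain GLAST+ over GLAST- astrocytes. Mybpc1 and Wif1 were its most enriched genes of hindbrain against the other regions. Values after ± are approximate SEs, the size of the log2 fold change divided by the square root of the test's F statistic. Gdf10 (ENSMUSG00000021943; GRCm38, chromosome 14, 33923587 to 33937983, + strand) was at 1763, 2391 and 2568 CPM in the Gdf10-high libraries and at 92.8, 73.8 and 94 CPM in the Gdf10-low libraries, a log2 fold change of 4.69 ± 0.32 (SE, adjusted p = 1.39e-21). Wif1 (ENSMUSG00000020218; chromosome 10, 121033960 to 121100650, + strand), a secreted inhibitor of Wnt ligands, was at 113, 200 and 99.2 CPM against 7.92, 4.61 and 3.21 CPM, with a log2 fold change of 4.68 ± 0.71 (adjusted p = 7.06e-07). Mybpc1 (ENSMUSG00000020061; chromosome 10, 88518279 to 88605152, - strand), a myosin-binding protein, was at 182, 166 and 250.2 CPM against 31.7, 20.8 and 28.8 CPM, with a log2 fold change of 2.87 ± 0.5 (adjusted p = 1.7e-05). The lowest Gdf10-high library was above the highest Gdf10-low library for each of these genes. In the other 9 acutely isolated libraries Gdf10 reached 79 CPM, Wif1 4.66 CPM and Mybpc1 4.61 CPM at most.

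The promoters of these 3 genes are shown because the genes moved together and because Zic1 and Zic5, zinc finger factors, were called higher in the same libraries. Both calls were lost on omitting some single libraries. Zic5 averaged 19.6 CPM in the Gdf10-low libraries, but 40.7 and 45.7 CPM in those labelled forebrain ACSA+GLAST- and hindbrain ACSA+GLAST+. The 250 bases before the RefSeq start on the gene's own strand (GRCm38.p6) are chr14:33923337-33923586 (+) for Gdf10, chr10:88605153-88605402 (-) for Mybpc1 and chr10:121033754-121034003 (+) for Wif1. Capitals mark matches to CAGCAGG or its reverse complement CCTGCTG, letters taken for a binding motif of Zic proteins.
Gdf10: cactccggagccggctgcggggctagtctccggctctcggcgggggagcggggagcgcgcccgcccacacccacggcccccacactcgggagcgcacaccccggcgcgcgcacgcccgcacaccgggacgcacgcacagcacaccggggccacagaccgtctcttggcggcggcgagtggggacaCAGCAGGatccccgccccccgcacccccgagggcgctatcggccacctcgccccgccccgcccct
Mybpc1: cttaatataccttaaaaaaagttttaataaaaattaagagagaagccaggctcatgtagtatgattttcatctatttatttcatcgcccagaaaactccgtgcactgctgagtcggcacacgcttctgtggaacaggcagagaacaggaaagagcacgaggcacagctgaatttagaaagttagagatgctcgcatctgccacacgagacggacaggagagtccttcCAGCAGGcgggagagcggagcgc
Wif1: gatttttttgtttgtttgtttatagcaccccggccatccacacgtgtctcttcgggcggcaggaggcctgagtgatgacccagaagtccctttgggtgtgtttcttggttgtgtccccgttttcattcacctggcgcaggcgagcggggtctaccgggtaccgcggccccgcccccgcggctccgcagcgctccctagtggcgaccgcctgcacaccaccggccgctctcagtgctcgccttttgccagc
A match began 65 bases before the start of Gdf10 and 23 bases before that of Mybpc1, and the letters are not in this window of Wif1. They were found at 3 of the 19 listed Bergmann glia genes with a listed promoter (15.8%) and at 9.67% of all 27025 genes. The motif was chosen after expression values were seen, and a match describes letters only. Regulation by Zic proteins was not tested.

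Over the whole list of 20 Bergmann glia genes, 17 were called higher and none was called lower, with a median log2 fold change of 2.66. The list was chosen with earlier results of these data known, so this count is a description. It holds the markers Gdf10, Wif1 and Mybpc1, which the study reported from these libraries, and the sort antigen gene Slc1a3. The count was 16 or 17 on omitting any of the 6 libraries, in the fit of the 6 libraries alone and with DESeq2's Wald test. Tested against a log2 fold change of 1, it was 11 with DESeq2 and 13 with edgeR's glmTreat. Slc1a3, which was used in the sort, had a log2 fold change of 2.39 ± 0.19. Hopx, a homeodomain protein without DNA binding of its own that marks radial glia and Bergmann glia, was at 1826, 1048 and 1264 CPM against 109, 223 and 143 CPM (log2 fold change 3.12 ± 0.3, adjusted p = 3.62e-14). Its antisense gene Hopxos was at 91.5, 58.9 and 24.8 CPM against 2.26, 0 and 6.41 CPM, and use of strand in the counting is not stated, so reads of this pair cannot be told apart. The same holds for Mybpc1 and Gm48752, Timp4 and Syn2, S100b and Dip2a, and Pfkp and Pitrm1. Hopxos was not called without Gdf10-high library 1 (adjusted p = 0.122) or Gdf10-low library 1 or 2 (0.0682 and 0.0853). Sept4, which encodes a cytoskeletal septin, was at 1296, 1601 and 1018 CPM against 194, 164 and 165 CPM. The groups did not overlap for any of these genes.

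Other called members of the list encode secreted proteins. A2m, a protease inhibitor, was at 447, 373 and 449.7 CPM against 83.7, 51.9 and 55.6 CPM. Npy, the precursor of neuropeptide Y, was at 157, 189 and 101 CPM against 12.4, 13.8 and 33.1 CPM, and Timp4, an inhibitor of matrix metalloproteinases, at 3875, 3024 and 1973 CPM against 940.4, 728 and 933 CPM. Log2 fold changes were 2.73 ± 0.41, 2.9 ± 0.45 and 1.77 ± 0.22. Vim and Fabp7, which encode an intermediate filament and a lipid-binding protein of radial glia, had log2 fold changes of 1.81 ± 0.31 and 1.57 ± 0.29. Dao, the peroxisomal oxidase of D-serine, was at 625, 594 and 267 CPM against 148, 126 and 282 CPM, so its groups overlapped through Gdf10-high library 3. Its log2 fold change of 1.42 ± 0.37 was no longer called without Gdf10-high library 2 (adjusted p = 0.0549) or without Gdf10-low library 1 or 2 (0.0978 and 0.119). The 3 genes that were not called were Gabra2 and Gabrg1, subunits of the GABA-A receptor, and Ednrb, an endothelin receptor, with log2 fold changes of 0.39, 0.14 and 0.23 and overlapping groups. Fewer cells of a type and less RNA per cell cannot be told apart in such bulk libraries.

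**Figure D3:**
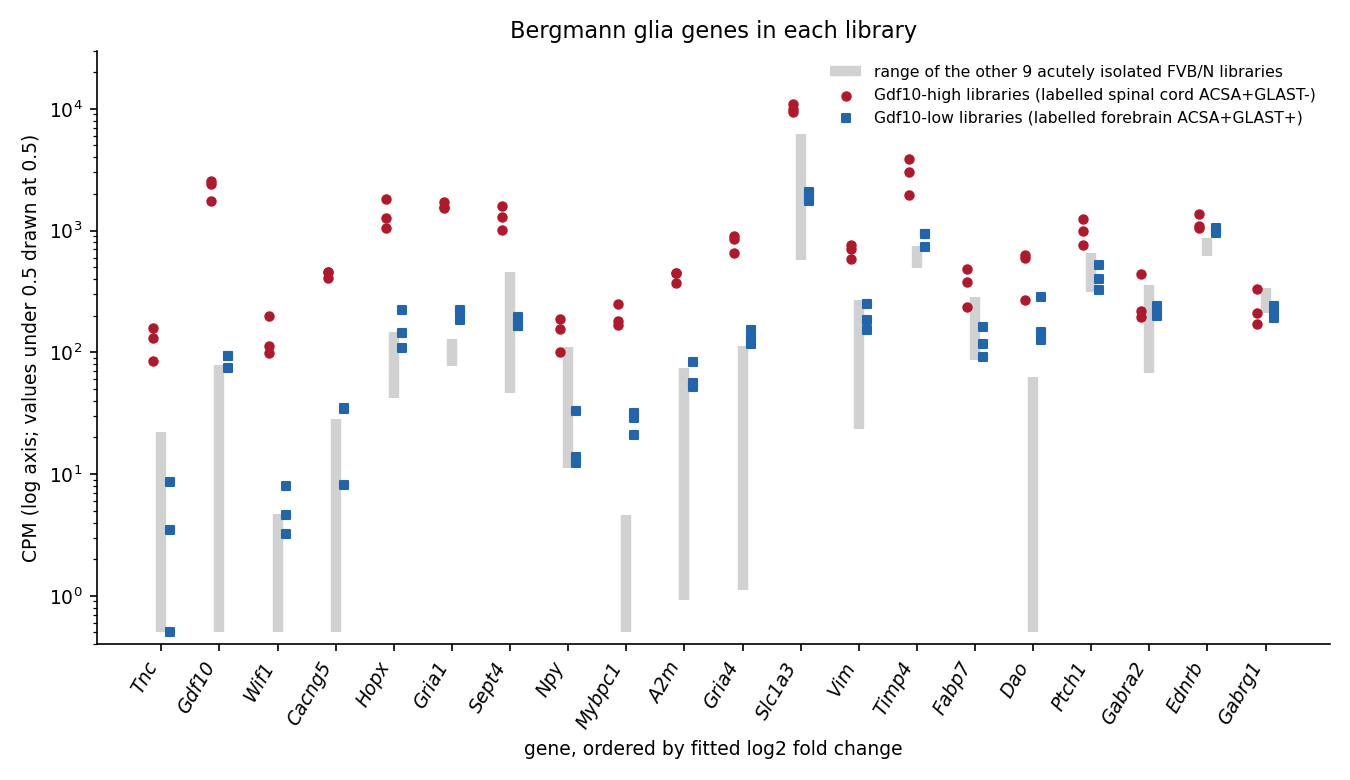
CPM on a log axis of the 20 Bergmann glia genes in the 3 Gdf10-high libraries (circles), the 3 Gdf10-low libraries (squares) and the range of the other 9 acutely isolated FVB/N libraries (grey bars), ordered by log2 fold change, with values under 0.5 drawn at 0.5. For Gdf10 the circles sit between 1763 and 2568 CPM and the squares between 73.8 and 94 CPM, and for the last 3 genes, Gabra2, Ednrb and Gabrg1, they overlap.

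The AMPA receptor genes moved in opposite directions. Gria1 (GluA1) was at 1731, 1545 and 1550.0 CPM in the Gdf10-high and at 183, 213 and 223 CPM in the Gdf10-low libraries, a log2 fold change of 2.96 ± 0.25 (adjusted p = 3.26e-16). Gria4 (GluA4) was at 907, 854 and 657.5 CPM against 128, 117 and 154 CPM (2.6 ± 0.29, adjusted p = 8.37e-11). Gria2 (GluA2), the subunit that makes AMPA receptors impermeable to calcium, was at 135, 141 and 149.9 CPM against 358, 401 and 364 CPM, a log2 fold change of -1.4 ± 0.25 (adjusted p = 1.93e-05). The groups did not overlap for any of the 3 genes, and in the other 9 libraries Gria1 reached at most 128 CPM while Gria2 was at 352 CPM or above. Gria3 was at 9.64 CPM or less in all 6 libraries and was not called. Cacng5, an auxiliary AMPA receptor subunit, was at 455, 409 and 454 CPM against 35.1, 8.07 and 34.2 CPM, with a log2 fold change of 4.08 ± 0.46. Of 21 tested members of the list of ionotropic glutamate receptor genes, 4 were called higher and 2 lower. The second lower gene was Grin2c, an NMDA receptor subunit, at 31.3, 107 and 99.2 CPM against 251, 186 and 173 CPM. The log2 fold change of Grin2c was -1.35 ± 0.29, and without Gdf10-high library 1 it was -0.96 and so not called. Grin2c also stands in the list of granule neuron genes. Cacng5, Gria1 and Gria4 were called under each omission of 1 library, and the list then held 4 or 5 higher and 1 or 2 lower genes.

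Transporters of glutamate, glutamine and GABA differed in both directions. Of 20 tested genes of this list 3 were called higher, Slc1a3, Dao and Slc38a1, and 4 lower. Leaving out 1 library gave 2 or 3 higher and 3 to 5 lower genes, and the fit of the 6 libraries alone 2 of each. Slc38a1, a glutamine transporter, was at 680.6, 1071 and 1666 CPM against 334, 355 and 565 CPM (1.45 ± 0.28), whereas Slc38a3, the glutamine transporter of most astrocytes, was at 277, 369 and 378 CPM against 887, 915 and 1270.0 CPM (-1.58 ± 0.22). Slc6a11, the GABA transporter GAT-3, was at 582, 2047 and 3204 CPM against 7727, 4788 and 6514 CPM (-1.71 ± 0.23, adjusted p = 4.63e-08), which was lower in all 3 libraries but by very different amounts. Slc7a10, a transporter of D-serine and other small amino acids, was at 63.8, 71.5 and 68.2 CPM against 236.5, 223 and 89.7 CPM (-1.43 ± 0.32). Slc1a2, the other main glutamate transporter of astrocytes, was at 2763, 4473 and 5722 CPM against 5090.0, 3807 and 3981 CPM and was not called. Glul, glutamine synthetase, had a log2 fold change of -0.57 and was not called either.

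Receptors for GABA, glycine, monoamines and metabotropic glutamate held few called genes. Of 26 tested, 1 was called higher and 2 lower, against 1.24% and 2.52% of all genes. Without Gdf10-high library 3 there were 4 lower genes, and in the fit of the 6 libraries alone none was called. The alpha-2A adrenergic receptor gene Adra2a was at 4.82, 86 and 178 CPM in the Gdf10-high and 319, 405 and 324 CPM in the Gdf10-low libraries (-1.95 ± 0.37), with a wide spread among the former. The other called genes were Gabra4, at a log2 fold change of 1.12, and Grm5, a metabotropic glutamate receptor, at -2.02. Gabra4 and Gabrb1 overlap on opposite strands. Gabra4 was not called without Gdf10-high library 1 or any of the Gdf10-low libraries (adjusted p between 0.0885 and 0.239), and Grm5 not without Gdf10-high library 2 (0.0797) or Gdf10-low library 1 or 3 (0.147 and 0.0575). Gabrb1, a further subunit of the GABA-A receptor, was not called and had a log2 fold change of 0.19.

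Of 22 tested genes of potassium channels, endfeet and gap junctions, 5 were lower and none higher, with a median log2 fold change of -0.55. The connexin gene Gjc3 was placed in the myelin list and was called higher (2.14 ± 0.31). The number of lower genes was 8 without Gdf10-high library 3, 4 without library 1 or 2 of that group, and 2 in the fit of the 6 libraries alone. Kcnk1, a K2P potassium channel, was at 32.5, 107 and 65.1 CPM against 542, 388 and 398.5 CPM (-2.68 ± 0.27, adjusted p = 1.64e-12), and Kcnd2, a voltage-gated potassium channel, at 9.64, 34.8 and 21.7 CPM against 198, 129 and 119 CPM (-2.73 ± 0.38). Utrn, which encodes utrophin of the endfoot complex, was at 53, 55.1 and 15.5 CPM against 169, 108 and 124 CPM (-1.7 ± 0.39). The glucose transporter gene Slc2a1 was at 48.2, 102 and 260.5 CPM against 367, 427 and 372 CPM (-1.5 ± 0.3). These 4 genes separated the groups. Gja1, which encodes connexin 43, was lower in every Gdf10-high library with a log2 fold change of -0.74 (adjusted p = 0.0114), and Aqp4, the water channel of endfeet, likewise with -0.87 (adjusted p = 0.00302), both short of the fold required for a call. Of 9 genes of the sodium pump 1 was called, Fxyd7, a regulatory subunit (3.46 ± 1.02), and the call was lost on omitting Gdf10-high library 1 or 2 or any Gdf10-low library (adjusted p between 0.0729 and 0.137). Aqp4 was named after its value was seen.

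Of 23 tested general astrocyte genes, 4 were called higher, S100b, Vim, Fabp7 and Id4, and 2 lower, Agt and Slc39a12. Without the library of each group with the most mitochondrial counts, 3 were higher and none lower. Sox9, a transcription factor of astrocytes, was at 1003, 1683 and 1508 CPM against 1093, 1306 and 1348 CPM, with overlap. Gfap was at 56.6, 48.3 and 35.1 CPM against 112, 80.7 and 72.7 CPM and was not called (log2 fold change -0.92). S100b was at 7339, 2751 and 2008 CPM against 1532, 1112 and 1667 CPM, and without Gdf10-high library 1 its log2 fold change fell from 1.49 to 0.74 and was not called. Agt, which encodes angiotensinogen, was at 370, 729 and 1083 CPM against 1654, 1624 and 1386 CPM, and without the same library its log2 fold change was -0.77 in place of -1.09. Sox9 and Gfap were chosen after their values were seen.

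Extracellular matrix genes included some of the largest differences. Tnc, which encodes tenascin-C, a matrix protein of radial glia, was at 85.5, 130.5 and 159 CPM in the Gdf10-high and 0, 3.46 and 8.55 CPM in the Gdf10-low libraries (4.9 ± 0.72, adjusted p = 3.42e-07). Gpc6, a cell surface proteoglycan, was at 166, 289.9 and 351.5 CPM against 41.9, 28.8 and 45.9 CPM (2.79 ± 0.36), and Spock3, a secreted proteoglycan, at 113, 144 and 119.9 CPM against 33.9, 15 and 9.62 CPM (2.68 ± 0.51). Ccn3, a matricellular protein, was at 90.3, 74.4 and 42.4 CPM against 4.53, 0 and 4.27 CPM and was at 0 in the other 9 libraries. In the same list of 56 tested genes, 5 were higher and 7 lower. The counts were 6 and 4 without Gdf10-high library 1 and 5 and 3 in the fit of the 6 libraries alone. Ncan, which encodes the lectican neurocan, was at 41, 111 and 111 CPM against 266, 217 and 304.5 CPM (-1.57 ± 0.27), and Vwa1, a protein of basement membranes, at 31.3, 73.4 and 69.3 CPM against 225, 178 and 219 CPM (-1.83 ± 0.33).

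Of 26 tested collagen genes 3 were called higher, and all 3 encode chains of type II or type IX collagen, best known from cartilage. Col9a2 was at 172, 235 and 269 CPM against 11.3, 16.1 and 7.48 CPM (4.26 ± 0.54, adjusted p = 5.13e-09), Col9a3 at 146, 223 and 223 CPM against 37.3, 36.9 and 29.9 CPM (2.5 ± 0.43), and Col2a1 at 37.3, 112 and 85.8 CPM against 7.92, 3.46 and 12.8 CPM (3.26 ± 0.84). The groups did not overlap. Col2a1 was not called without Gdf10-high library 2 (adjusted p = 0.105) or Gdf10-low library 1 or 2 (0.0595 and 0.0879). The 2 lower genes were Col27a1, with 0 counts in the Gdf10-high libraries and 11.3, 19.6 and 13.9 CPM in the Gdf10-low ones, at least 4.13-fold lower against the highest floor of 3 counts in a library, and Col1a1 (-2.8 ± 0.87), a gene of mural cells and fibroblasts. The call of Col1a1 was lost on omitting Gdf10-high library 1 or 3 or any Gdf10-low library (adjusted p between 0.0754 and 0.154). In the fit of the 6 libraries alone 3 collagen genes were higher and none lower. None of 6 laminin genes was called by edgeR or DESeq2, and 1 had an unadjusted edgeR p under 0.05. Of 17 integrin genes 1 was called, Itga6 at -1.05, against 3.76% of all genes tested. This call was lost without Gdf10-high library 1 or 2 (adjusted p = 0.0607 and 0.0619) or Gdf10-low library 1 (0.0848).

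In the TGF-β and BMP pathway, 4 of 45 tested genes were higher and 6 lower. Leaving out any 1 library gave 4 higher genes. The number of lower genes was 2 without Gdf10-high library 1 or Gdf10-low library 1, 4 without Gdf10-high library 3, and 1 without the library of each group with the most mitochondrial counts or in the fit of the 6 libraries alone. Beside the ligand Gdf10, the transducer Smad3 was at 189, 172 and 122 CPM against 13.6, 26.5 and 15 CPM (3.13 ± 0.52, adjusted p = 5.52e-06). Tgfb2, which encodes the ligand TGF-β2, was at 20.5, 43.5 and 65.1 CPM against 119, 148 and 119 CPM (-1.56 ± 0.33). The Id genes, known targets of BMP signalling, differed in direction. Id4 was at 396, 443 and 365 CPM against 90.5, 88.8 and 80.1 CPM (2.21 ± 0.29), Id2 was at 119, 208 and 189 CPM against 669.9, 534 and 558 CPM (-1.77 ± 0.24), and Id3 was not called with a log2 fold change of 0.02. The BMP antagonist gene Chrdl1 was at 9.64, 4.83 and 15.5 CPM against 1.13, 0 and 0 CPM, a ratio of 26.6 with a 95% counting interval of 4.39 to 1086 from 1 count in the Gdf10-low libraries. It reached 185 CPM in the other 9 libraries.

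In the Wnt pathway 5 of 45 tested genes were higher, among them 2 secreted inhibitors, Wif1 and Sfrp1, and 4 were lower. Of the lower genes 1 was called without Gdf10-high library 1, without Gdf10-low library 1 or without the library of each group with the most mitochondrial counts, 2 without Gdf10-low library 3 and none in the fit of the 6 libraries alone. The higher genes numbered 4 or 5 in these fits. Sfrp1 was at 138.5, 193 and 117 CPM against 20.4, 15 and 32.1 CPM (2.72 ± 0.35), and the receptor gene Fzd1 at 195, 282 and 164 CPM against 46.4, 98 and 22.4 CPM (1.95 ± 0.4). Wnt3, a ligand, was at 89.1, 96.6 and 79.6 CPM against 10.2, 15 and 12.8 CPM, and its log2 fold change of 2.79 ± 0.72 was not called without Gdf10-low library 1 (adjusted p = 0.0733). The receptor gene Fzd10 was at 6.02, 11.6 and 1.03 CPM against 49.8, 51.9 and 21.4 CPM (-2.68 ± 0.55). Wnt7a, a ligand, had a log2 fold change of -1.23 and was not called without Gdf10-high library 1 (adjusted p = 0.105) or Gdf10-low library 1 (0.0923). Sfrp5, a further secreted inhibitor, was at 27.7, 102 and 285 CPM against 298, 199.5 and 248 CPM and was not called.

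The hedgehog list gave 2 higher and 1 lower of 15 tested genes, against 1.24% and 2.52% of all genes tested. The fit of the 6 libraries alone gave 1 higher and none lower. Ptch1, receptor and target of Sonic hedgehog, was at 765, 985 and 1236 CPM against 517, 397 and 328 CPM (1.27 ± 0.24, adjusted p = 7.25e-05). Hhip, a membrane protein that binds the ligand and is a target as well, was at 14.5, 10.6 and 16.5 CPM against 0 counts in the Gdf10-low libraries, at least 4.01-fold higher. The co-receptor gene Boc was at 48.2, 79.2 and 84.8 CPM against 132, 151 and 175 CPM. Its call was lost without Gdf10-high library 1 or 2 (adjusted p = 0.189 and 0.0589) or any of the Gdf10-low libraries (between 0.0756 and 0.22). Gli3, a transcription factor of the pathway, was not called and had a log2 fold change of 0.27. In the FGF list 2 of 24 genes were higher, among them the receptor gene Fgfr2 at 185.5, 310.2 and 329 CPM against 109, 95.7 and 122 CPM (1.34 ± 0.3), and Flrt2, an adhesion molecule that binds FGF receptors, was lower at 1.2, 6.76 and 48.6 CPM against 119.9, 127 and 119.7 CPM (-2.67 ± 0.45). In the fit of the 6 libraries alone 1 gene of the FGF list was higher and none lower. In the Notch list 1 of 21 genes was called, Hey1 at -1.09, near the 3.76% of all genes tested. This call was lost on omitting Gdf10-high library 1 or 2 or any Gdf10-low library (adjusted p between 0.0555 and 0.192).

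Regional transcription factors also differed between the groups. Zic1 was at 478, 535 and 475.5 CPM in the Gdf10-high and 190.1, 266 and 223 CPM in the Gdf10-low libraries, and Zic5 at 56.6, 82.1 and 77.5 CPM against 17, 30 and 11.8 CPM. Both separated the groups, and both calls were lost without Gdf10-high library 2 (adjusted p = 0.0549 and 0.0909), Gdf10-low library 1 (0.144 and 0.169) or Gdf10-low library 3 (0.0713 and 0.206). Zic4, read from the strand opposite to Zic1, was higher in each Gdf10-high library and was not called (log2 fold change 1.31). Meis2, a cofactor of Hox proteins, was at 33.7, 65.7 and 13.4 CPM against 127, 152 and 116.5 CPM (-1.8 ± 0.35). Of 23 tested hindbrain factors 3 were higher, Hopx being the third, and 2 lower, the second being Nkx6-1 (-3.14 ± 0.93), a factor of the ventral brain stem and spinal cord, which was not called without Gdf10-high library 1 or 2 (0.125 and 0.074) or Gdf10-low library 1 (0.222). The list held 1 higher gene without Gdf10-high library 2 or Gdf10-low library 1 or 3, and 4 without Gdf10-high library 1. Hoxd4 was at 0, 0.966 and 0 CPM against 29.4, 23.1 and 13.9 CPM, a ratio of 62.2 with a 95% counting interval of 10.7 to 2498 from 1 count, and is overlapped by Hoxd3 on its strand. Hoxd4 and Hoxa5 were the 2 called among 23 tested Hox genes. Hoxa5, overlapped by the Hoxa3 gene, was at 0, 8.7 and 0 CPM in the Gdf10-high libraries against 62.2, 16.1 and 5.34 CPM, so the 2 groups overlapped. It was not called without Gdf10-low library 1 (adjusted p = 0.429) or Gdf10-high library 1 (0.052). Otx2, a midbrain and forebrain factor, was the 1 gene called of 13 forebrain factors (-2.93 ± 0.81), lost without Gdf10-high library 1 (0.0745) or Gdf10-low library 2 (0.115). Zic4 was named after its value was seen.

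Among genes chosen only for the size of their fold change, Dach2, a transcriptional cofactor, was at 24.1, 16.4 and 39.3 CPM in the Gdf10-high libraries and had no count in any of the other 12 acutely isolated libraries, so that it was at least 7.69-fold higher than in the Gdf10-low group. Greb1, an oestrogen-regulated gene, was at 7.23, 35.8 and 19.6 CPM against 0, at least 6.03-fold higher. Cd70, a ligand of the TNF family, was at 71.1, 62.8 and 35.1 CPM against 0, 1.15 and 5.34 CPM, and reached 1.46 CPM at most in the other 9 libraries. Ctxn3, a small membrane protein, was at 73.5, 19.3 and 35.1 CPM against 3.39, 0 and 0 CPM, a ratio of 36.4 with a 95% counting interval of 12.1 to 178.9 from 3 counts. These genes separated the groups, but their counts are low and single libraries decided some calls. Dach2 was no longer called on omitting any Gdf10-low library (adjusted p between 0.0743 and 0.0842), Cd70 not without Gdf10-low library 1 or 2 (0.0723 and 0.0537), and Ctxn3 not without Gdf10-high library 1 (0.166) or Gdf10-low library 2 or 3 (0.106 and 0.101). At the other end, Edn1, which encodes endothelin 1, had no count in the Gdf10-high libraries and was at 40.7, 17.3 and 16 CPM in the Gdf10-low libraries, at least 6.83-fold lower, and was not called without Gdf10-low library 1 (0.0628). Mir124-2hg, the host transcript of a neural microRNA gene, was at 0, 1.93 and 0 CPM against 64.5, 36.9 and 31 CPM, a ratio of 62.2 with an interval of 16.8 to 519.6. Kcna1, a voltage-gated potassium channel, was at 1.2, 0.966 and 0 CPM against 30.6, 23.1 and 28.8 CPM, a ratio of 39 with an interval of 10.4 to 328.1.

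Adhesion molecules changed in both directions, with 3 of 38 tested genes higher and 6 lower. The number of lower genes was 3 without Gdf10-high library 1, without Gdf10-low library 3 or without the library of each group with the most mitochondrial counts, and 2 in the fit of the 6 libraries alone, which also gave 2 higher. Cdh4 and Cdh22, classical cadherins, were at 152, 157.5 and 84.8 CPM against 3.39, 11.5 and 22.4 CPM (3.38 ± 0.56) and at 264, 223 and 104 CPM against 23.8, 43.8 and 39.5 CPM (2.46 ± 0.44). Cadm1, an adhesion molecule of the immunoglobulin family, was at 53, 184 and 68.2 CPM against 355, 311 and 302 CPM (-1.66 ± 0.27). None of these genes overlapped between the groups. Ncam1 was lower in each Gdf10-high library by less than the fold required (-0.6).

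A few glycolytic enzymes differed, in both directions. Hk2, a hexokinase, was at 79.5, 89.9 and 116 CPM in the Gdf10-high and 24.9, 4.61 and 13.9 CPM in the Gdf10-low libraries (2.7 ± 0.7), and was not called without Gdf10-low library 2 or 3 (adjusted p = 0.108 and 0.055). Pfkp, the platelet type of phosphofructokinase, was at 28.9, 60.9 and 101 CPM against 427, 340.2 and 297 CPM (-2.47 ± 0.3, adjusted p = 1.54e-09). Of 25 tested genes of glycolysis, lactate and glycogen 1 was higher and 2 lower, against 1.24% and 2.52% of all genes. The counts were 1 and 3 without Gdf10-high library 3, and 1 and 1 without Gdf10-high library 1 or Gdf10-low library 1. Aldoc, the brain aldolase, was not called (0.35).

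Cholesterol synthesis genes were lower in the Gdf10-high libraries where they were called. Of 23 tested, 3 were lower and none higher, with a median log2 fold change of -0.53. Msmo1, a sterol oxidase, was at 399, 427 and 395 CPM against 913, 1128 and 777 CPM (-1.21 ± 0.21), Mvd, which makes isopentenyl diphosphate, at 33.7, 40.6 and 58.9 CPM against 117, 152 and 142 CPM (-1.62 ± 0.33), and Dhcr7, which makes cholesterol in the last step, at 37.3, 31.9 and 37.2 CPM against 161, 129 and 107 CPM (-1.9 ± 0.32). The groups did not overlap for these 3 genes. Hmgcs1, at the start of the pathway, was not called with a log2 fold change of -0.13. The promoters of the 3 genes are shown because all of them hold a CCAAT box, with capitals at matches to CCAATC or its reverse complement GATTGG. Only these letters were searched, so other CCAAT or ATTGG letters in the windows of Msmo1 and Mvd stay in lower case. The windows are chr8:64733579-64733828 (-) for Msmo1, chr8:122443423-122443672 (-) for Mvd and chr7:143829964-143830213 (+) for Dhcr7, the last at 1 of 3 listed starts.
Msmo1: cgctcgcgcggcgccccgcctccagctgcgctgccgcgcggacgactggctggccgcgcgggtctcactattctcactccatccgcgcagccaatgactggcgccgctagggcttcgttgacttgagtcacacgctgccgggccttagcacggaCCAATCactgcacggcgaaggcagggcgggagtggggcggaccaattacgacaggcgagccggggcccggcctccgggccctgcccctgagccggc
Mvd: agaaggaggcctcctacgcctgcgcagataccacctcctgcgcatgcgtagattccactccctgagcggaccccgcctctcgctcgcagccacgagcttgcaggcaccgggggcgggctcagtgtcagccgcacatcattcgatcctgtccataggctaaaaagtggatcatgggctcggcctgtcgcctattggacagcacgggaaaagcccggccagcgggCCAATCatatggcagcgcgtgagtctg
Dhcr7: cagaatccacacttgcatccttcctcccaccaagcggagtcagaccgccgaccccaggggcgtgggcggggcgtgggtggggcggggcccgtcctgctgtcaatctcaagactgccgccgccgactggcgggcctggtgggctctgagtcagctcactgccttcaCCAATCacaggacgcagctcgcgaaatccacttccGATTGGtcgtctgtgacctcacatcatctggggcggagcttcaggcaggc
Matches began 96 bases before the start of Msmo1, 27 before that of Mvd, and 85 and 50 before that of Dhcr7. The letters were found at 12 of the 17 cholesterol synthesis genes with a listed promoter (70.6%), uncalled genes included, and at 16.6% of all 27025 genes. The motif was chosen after the sequences were read.

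Markers of oligodendrocytes were lower in the Gdf10-high libraries. Of 26 tested myelin and oligodendrocyte genes 18 were called lower and 1 higher, with a median log2 fold change of -2.21. The fit of the 6 libraries alone gave 12 lower, and DESeq2 with a tested threshold of 1 on the log2 scale 8. The summed level of the list was 3150, 3743 and 3304 CPM in the Gdf10-high and 9987, 7246 and 6716 CPM in the Gdf10-low libraries. Mag, a myelin adhesion protein, was at 13.2, 48.3 and 1.03 CPM against 362, 189 and 253 CPM (-3.65 ± 0.4, adjusted p = 1.82e-11), and Sox10, the transcription factor of the lineage, at 2.41, 2.9 and 1.03 CPM against 30.6, 27.7 and 22.4 CPM (-3.58 ± 0.73). The gene called higher was Gjc3, which encodes a connexin, at 580.6, 456 and 668 CPM against 117, 149.9 and 119.7 CPM (2.14 ± 0.31). Mbp, with log2 fold change -0.5, and Cnp, with 0.45, were not called. Olig2 and Olig1, which brain stem astrocytes can also express, were at 4.82, 34.8 and 53.8 CPM against 208, 216 and 133.5 CPM and at 43.4, 70.5 and 122 CPM against 304, 221 and 224 CPM. The list of 8 precursor genes summed to between 69.9 and 175.7 CPM against between 402.8 and 542 CPM. The part of oligodendrocyte RNA in the other lower genes was not tested.

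Markers of the other cell types were uneven. Purkinje cell genes summed to 1159, 507 and 404 CPM in the Gdf10-high libraries, against a range of 141.4 to 213.4 CPM in the Gdf10-low libraries, and 4 of 8 were called higher, or 1 without Gdf10-high library 1 or in the fit of the 6 libraries alone. Of the called genes, Itpr1 was at 568.5, 87 and 22.7 CPM against 24.9, 39.2 and 37.4 CPM, Pcp4 at 202, 31.9 and 0 CPM against 5.66, 0 and 8.55 CPM and Car8 at 55.4, 1.93 and 14.5 CPM against 2.26, 3.46 and 3.21 CPM. Each overlapped between the groups, and without Gdf10-high library 1, which also had the most mitochondrial counts, their adjusted p were 0.614, 0.543 and 0.435. Pcp4 and Car8 were also lost without Gdf10-low library 2 (0.0505 and 0.052), and Car8 without Gdf10-low library 1 or 3 (0.0867 and 0.0569). Car8 averaged 23.9 CPM in the Gdf10-high libraries, but 35.9 and 74.6 CPM in those labelled forebrain ACSA+GLAST- and hindbrain ACSA+GLAST+. Genes of ependyma and choroid plexus summed to 2136, 958 and 363 CPM against between 894.2 and 1308 CPM, where Ttr, the main choroid plexus transcript, was at 2078, 765 and 311 CPM against 801, 958 and 164 CPM and was not called. Of the ependymal genes Ccdc153, at 2.41, 41.6 and 0 CPM against 46.4, 85.3 and 232 CPM, was called lower together with Foxj1, Tmem212 and Dynlrb2, and in the fit of the 6 libraries alone no gene of this list was called. None of the 4 stayed called without Gdf10-low library 3 (adjusted p between 0.143 and 0.326). Of 8 granule neuron genes 1 was called, Grin2c, and the list summed to between 131.3 and 177.8 CPM against between 296.5 and 384 CPM. Myeloid genes summed to at most 100.5 CPM, endothelial genes to at most 21.9 CPM, and pan-neuronal genes to between 349.4 and 802.2 CPM against between 379.1 and 730.8 CPM. Of these 3 lists no member was called by edgeR or DESeq2 and none had an unadjusted edgeR p under 0.05. Of 30 mitochondrially encoded genes none was called by either tool and 6 had an unadjusted edgeR p under 0.05. Without Gdf10-high library 3, 4 of them were called higher, without Gdf10-low library 3, 1 was, and without the library of each group with the most mitochondrial counts 1 was called lower. Mural and fibroblast genes summed to between 202 and 318.4 CPM against between 128.2 and 188 CPM. Of 7 tested, none was called higher and 1 lower, against 1.24% and 2.52% of all genes, with a median log2 fold change of -0.15. The fit of the 6 libraries alone called none of them. Of 22 genes of dissociation stress, Ier3 alone was called, at 128, 108 and 135 CPM against 14.7, 20.8 and 18.2 CPM (2.78 ± 0.54).

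**Figure D4:**
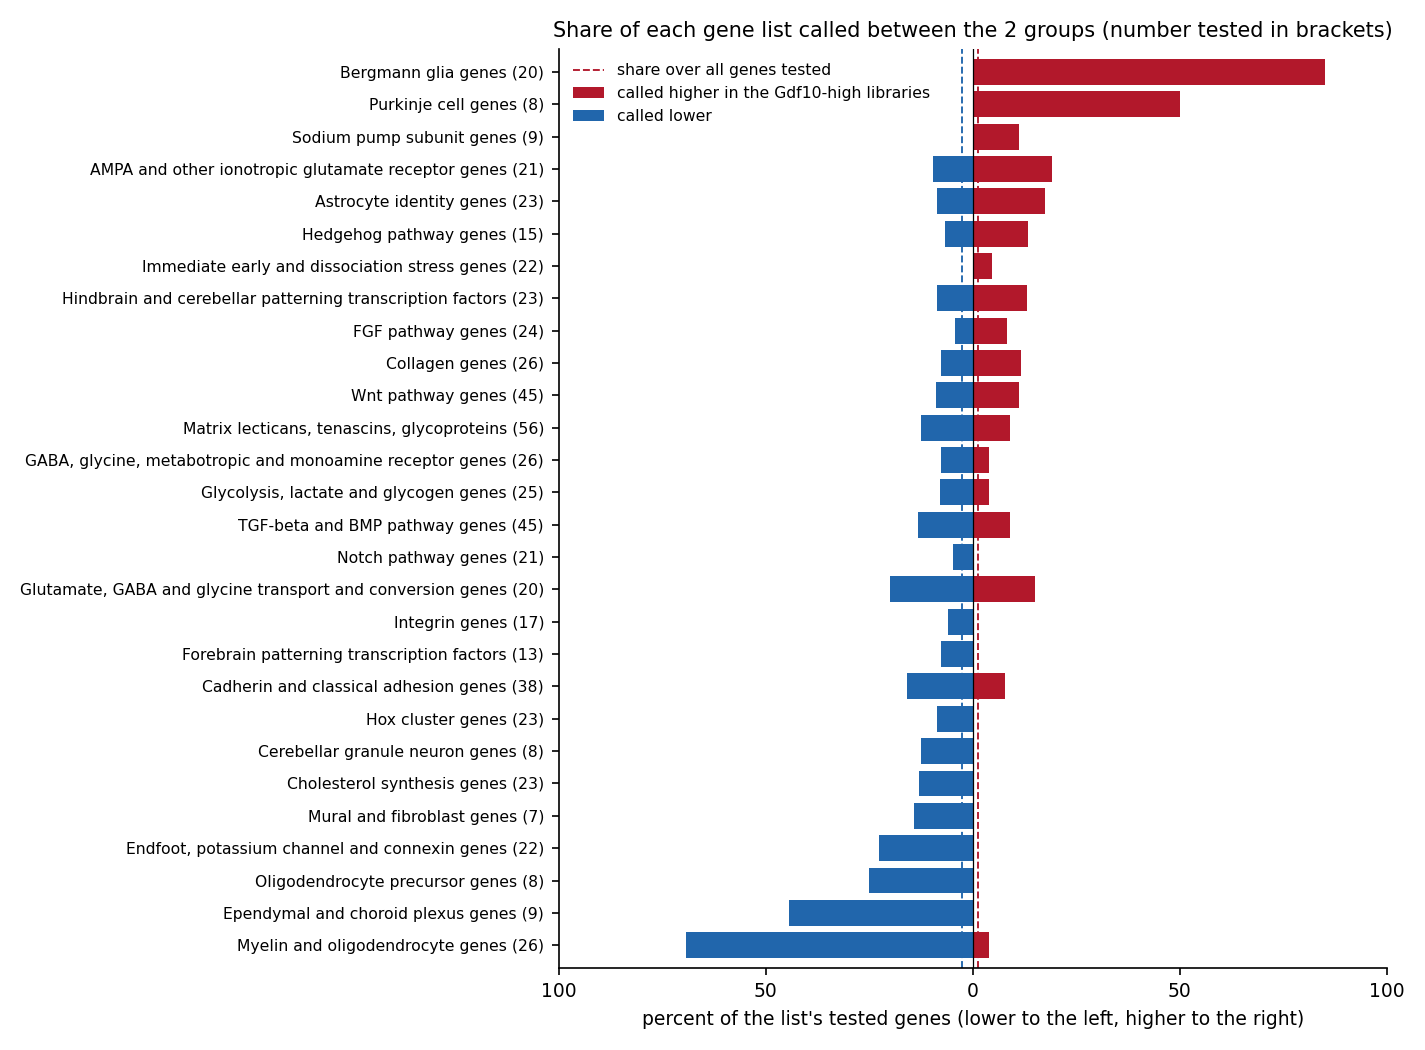
Percent of the tested genes of each list called higher (to the right) or lower (to the left) in the Gdf10-high libraries, with the number tested in brackets and dashed lines at the share over all genes tested, 1.24% higher and 2.52% lower. Lists with no called member are left out, and the lists were chosen with earlier results of these data known.

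Part of the called genes also set the Gdf10-high libraries apart from the other populations. Of the 185 genes called higher, 172 did not overlap between the 6 libraries, against 6.06% of all genes tested, and 355 of the 377 lower genes did not, against 11.7%. The calls were made on these same 6 libraries, so this excess follows largely from the choice of genes. For 122 of the higher genes the 3 Gdf10-high libraries lay above all 12 other acutely isolated libraries, which was so for 2.18% of all genes, and for 174 of the lower genes they lay below all 12, against 2.29%. These 12 include the Gdf10-low libraries used for the calls, so this excess too is partly fixed by that choice. Gdf10, Gria1, Hopx, Slc1a3 and Col9a2 were among the genes above all 12 and Gria2, Msmo1 and Kcnk1 among those below. Chrdl1, Sfrp1, Hhip, Npy and Fabp7 were not above all 12, as they reached 185, 304, 44.3, 110 and 286.7 CPM in the other 9 libraries. For 167 of the 377 lower genes the highest mean was found in the libraries labelled hindbrain ACSA+GLAST-, named spinal cord ACSA+GLAST- in the study's table, and for 117 in the Gdf10-low libraries.

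The same kind of sorted pair was available in another strain. Unimmunised C57BL/6J mice, for which age and sex of the controls are not stated, gave 5 libraries labelled HB_AG and 5 labelled HB_A, read here as hindbrain ACSA+GLAST and ACSA from the design text, since the labels do not spell out these letters. They held between 2423406 and 3957998 and between 1554784 and 2975879 counts. In a fit of all 66 C57BL/6J libraries with the same test, 792 genes were called higher in HB_AG, 3.4% of 23324 tested, and 1646 lower, 7.06%, together 10.5%. Over all genes tested, 5.14% lay higher and 7.39% lower in HB_AG without overlap between the 10 libraries. Numbers in brackets in the library titles recur between the sorts, where 3 HB_AG libraries share one with an HB_A library and all 5 HB_A libraries share one with an HB_AG library. The labels do not say what these numbers mark, so libraries of the 2 sorts may share mice, whereas the p-values treat them as independent. With the numbers as a block, the 10 libraries alone gave 927 higher and 1397 lower calls, against 971 and 1614 without the block. The 2 strains share no library and were normalised and tested apart.

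In these libraries too Gdf10 marked 1 population. It was at 1826, 2234, 1375, 1880.0 and 1215 CPM in HB_AG and at 106.7, 63.9, 81.9, 90.7 and 35.4 CPM in HB_A, a log2 fold change of 4.49 ± 0.51 (adjusted p = 1.88e-10). Of the 185 genes called higher in FVB/N, 142 were called higher in C57BL/6J (76.8%, against 5.22% of the 14809 genes tested in both), 1 was called lower and 42 were not called. Of 374 genes called lower in FVB/N and tested here, 268 were called lower (71.7%, against 9.59%) and 1 higher. Calls made in FVB/N without Gdf10-high library 3 gave 58.1% and 71.9%, and those made without the library of each group with the most mitochondrial counts gave 71.4% and 72.1%.

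The AMPA receptor genes were split in the same way in C57BL/6J. Gria1 was at 2694, 2571, 2413, 2328 and 2602 CPM against 470.8, 548.9, 536.8, 601.8 and 510.3 CPM (2.24 ± 0.28), and Gria4 had a log2 fold change of 2.96 ± 0.28. Gria2 was at 55.6, 85.3, 97.6, 96.7 and 68.5 CPM against 298.3, 241.1, 265.1, 330.3 and 296.8 CPM (-1.83 ± 0.33, adjusted p = 2.91e-05). None of the groups overlapped. Of the Bergmann glia list, chosen with earlier results of these data known, 18 of 20 were called higher and none lower. The shares over all genes tested were 3.4% and 7.06%. The list had a median log2 fold change of 2.94. The gene not called in FVB/N was Gabra2, at 1.66 (adjusted p = 0.00086).

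Several genes were called in FVB/N and not in C57BL/6J, or the reverse. Sfrp1 was at 4.06 CPM or less in every HB_AG library and had a log2 fold change of -0.51, and Chrdl1 one of -3.24 (adjusted p = 0.165), against calls in the higher direction in FVB/N. Kcna1 had -0.03 and Dach2 1.63, not called, and Ccn3 was at 3.68 CPM or less in each of the 10 libraries. Itpr1, higher in FVB/N through Gdf10-high library 1, was lower in C57BL/6J (-1.06, adjusted p = 0.0116), and Mns1, a gene of motile cilia, was at 13.2, 36.7 and 1.03 CPM against 71.3, 79.6 and 199.8 CPM in FVB/N, and was higher in C57BL/6J (1.97, adjusted p = 0.0164) with overlapping groups. These 2 were the genes called in opposite directions of the 14809 tested in both. In the other direction, 12 of 23 cholesterol synthesis genes were called lower in C57BL/6J against 3 in FVB/N, and 22 of 26 myelin and oligodendrocyte genes against 18. Over all genes tested, 7.06% were called lower in C57BL/6J and 2.52% in FVB/N. Mbp and Cnp, not called in FVB/N, were lower (-2.23) and higher (1.23). The strains differ in depth and in number of libraries, and no difference between them was tested.

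**Figure D5:**
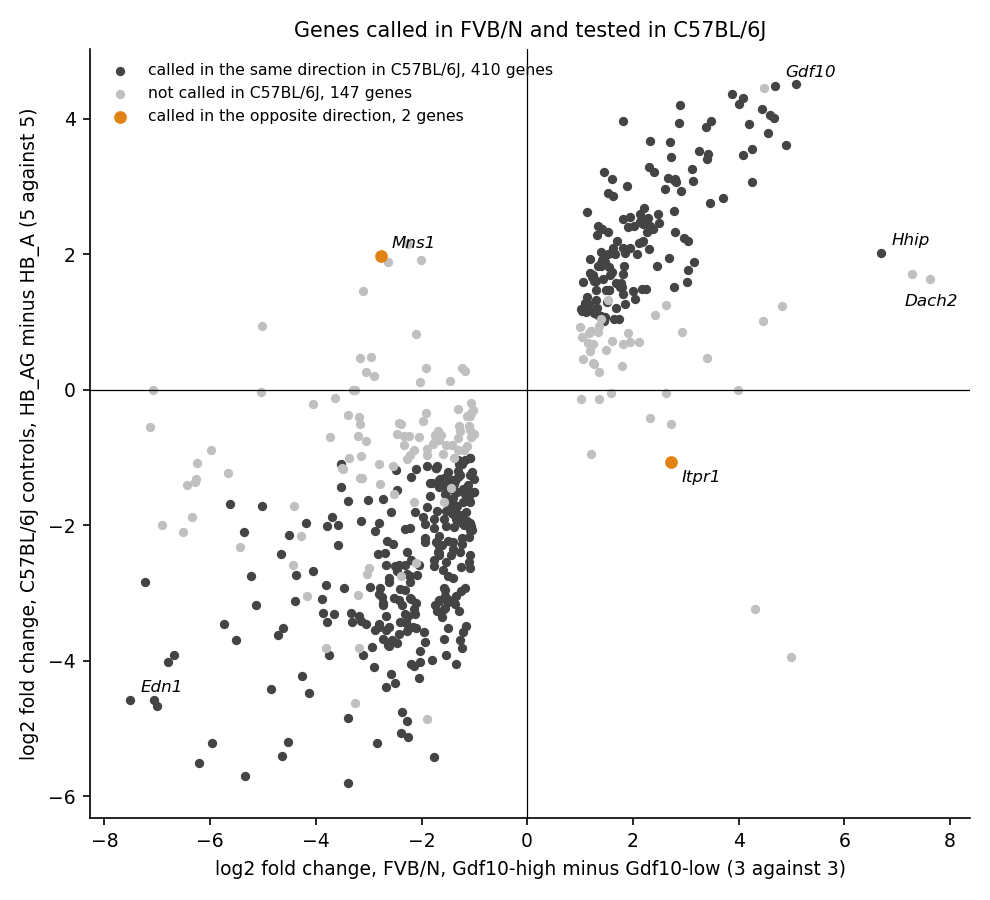
Log2 fold change in C57BL/6J controls (HB_AG minus HB_A, 5 against 5, vertical) against that in FVB/N (Gdf10-high minus Gdf10-low, 3 against 3, horizontal) for the genes called in FVB/N and tested in both, coloured by the call in C57BL/6J. Gdf10 lies at 4.69 and 4.49, and 2 genes, Itpr1 and Mns1, have calls in opposite directions.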

How the data were processed

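Astrocytes were sorted by flow cytometry and sequenced with QuantSeq 3′ FWD libraries, read singly over 50 bases. The authors deposited raw read counts per Ensembl gene, made by alignment to GRCm38 with HISAT 0.1.5, sorting with SAMtools and counting with HTSeq 0.6.1p1 in union mode; use of strand is not given in the sources used here. As 3′ counts they were not compared between genes. The FVB/N table listed 25773 genes, of which 25608 had a symbol.

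Here CPM and TMM factors were computed and tests run with edgeR 4.0.16 in R 4.3.3, on genes with at least 10 counts in the fit. Positions came from GENCODE M21 and promoters from RefSeq, both of GRCm38. The study used DESeq2 and cut calls at the same adjusted p and fold change. Its nearest alternative here is the Wald test of DESeq2 1.42.0 with those cuts, and tests against a log2 fold change of 1 were tried as well, beside other scalings, filters, omissions of each library and a replicate block. Tables and plots used Python 3.11.15, pandas 2.3.3 and matplotlib 3.10.9.

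Groups followed the sample labels. Each column of the study's own table of normalised values matched the counts of 1 library after scaling, within 0.000492% at most, which gave the second naming. Libraries with the same replicate number did not deviate together, which does not exclude shared mice. Genes were named by rule: the markers and sort antigens, the Bergmann glia list, the 12 largest called changes in each direction whose groups did not overlap and whose higher group averaged 20 CPM or more, and from each of 33 lists up to 4 called members in each direction and 2 uncalled ones. The members and lists were chosen with earlier results of these data known. On simulated data 133 of 200 genes given a true log2 difference of 2 were called in the FVB/N design, with 8 false calls among 141, on 14410 genes, and 155 of 200 in the C57BL/6J design, with 4 false among 159, on 22441 genes. Cultured astrocytes and immunised mice entered no comparison here. Some genes are not reported here.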

Additional observations from a re-analysis of the deposited data

Results flagged for a closer look

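In the C57BL/6J controls, 7 of 79 groups of 5 libraries tested had a library far from the other 4, where chance gives about 1 in 20. In HB_A, library 1 held the highest Hopx, at 125.8 CPM against at most 67.2 CPM in the others, and the highest Ctxn3, at 20.0 CPM against at most 7.82 CPM. Library 4 of HB_A held Cd70 at 20.4 CPM against at most 7.36 CPM. In HB_AG, library 1 held Ccn3 at 3.68 CPM against at most 0.762 CPM, and library 4 held Edn1 at 4.32 CPM against at most 1.14 CPM and the gene model Gm37051 at 3.55 CPM against at most 0.758 CPM. Library 5 of HB_AG held Plekhf1 at 25.5 CPM against at most 9.85 CPM. The groups of 3 FVB/N libraries were too small for this screen.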

How the results depend on the processing

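The 562 FVB/N calls (185 higher, 377 lower) fell to 64 (32 and 32) when DESeq2 tested against a log2 threshold of 1, to 164 (64 and 100) with edgeR's glmTreat at that threshold, and to 226 (111 and 115) when the 6 libraries were fitted alone, where 67 list members were called in place of 127. Leaving out 1 library gave 382 to 758 calls, 125 to 285 higher and 255 to 514 lower. DESeq2's Wald test with the same cuts, the alternative nearest to the study's own, called 726, and the other scaling and filters between 499 and 578. Omitting mitochondrially encoded genes, chosen after seeing the data, gave 560 calls, and omitting the library of each group with the most mitochondrial counts, also chosen then, 396. In C57BL/6J the 2438 calls ranged from 1984 to 2393 without 1 library and from 2325 to 2698 under the other planned settings. With a replicate block there were 584 calls in FVB/N and 2381 in C57BL/6J. Deviations of same-numbered libraries from their group means correlated at -0.107 to -0.0855 in FVB/N and at -0.134 to 0.0192 in C57BL/6J. They showed no pairing by number, but groups of 3 and 5 libraries are too small to exclude shared mice. A replicate block by the numbers in the C57BL/6J titles, chosen after seeing the data, gave 2324 calls in the 10 libraries alone, against 2585 without it. Deviations of the 5 pairs of libraries sharing such a number correlated at -0.0351 to 0.125, and those of the other 20 pairs at -0.205 to 0.164. Of 121 called genes that the rule names, 28 were called under every setting and none changed direction. Depth limits genes near 3 counts in a library, and Gdf10-high library 3, with the fewest genes detected, changed the count of higher calls most.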
